A study of Xenopus laevis with 2 samples.

Results

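The genes tbx2, tbx3, tbx5 and tbx20 encode T-box transcription factors that shape the vertebrate heart, and they were chosen by name from a table of 8879 transcripts. A row was taken when its symbol, with any copy ending removed, was one of these 4 names, which gave 6 rows. The rule itself uses no measured value, although the genes were picked with earlier results of these data known. In the allotetraploid frog Xenopus laevis many genes have an L and an S copy (homeologs, from its ancestral subgenomes), and the deposited table gives both rows of such a pair the same symbol. The RefSeq name table for assembly version 10.1 separates the rows, by accession, as tbx2.S, tbx2.L, tbx3.L, tbx3.S, tbx5.L and tbx20.L. That table was used for names and gene order only. The tbx5.S copy was not analysed here.

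The rows came from RNA sequencing of whole tadpole hearts at stage 44 to 45. A temperature of 16 to 23 °C is given for both groups. Sibling embryos had received a morpholino against tcf21 (Tcf21-MO) or a control morpholino (Control-MO) at fertilization, and each of the 2 groups was 1 library of polyadenylated RNA from 70 to 100 pooled hearts. Morpholinos are synthetic antisense molecules that keep an RNA from being translated or spliced, and Tcf21 is a basic helix-loop-helix factor made in the epicardium, the outer layer of the heart. The morpholino acts on the whole embryo and not on the heart alone. With 1 library per group no difference has a replicate check, so ratios describe this pair of libraries and not the conditions, and no p-value was computed. All intervals are at 95% and cover counting error only.

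T-box factors share a DNA-binding domain and act as activators or repressors. Tbx5, an activator, and Tbx20 drive the gene programme of the working chambers in mouse and frog hearts, together with Nkx2-5 and Gata4. Tbx2 and Tbx3 are repressors of that programme in the mouse and chick, where they mark the atrioventricular canal, the outflow tract and the conduction system. In mouse embryos Tbx20 holds Tbx2 down in the chambers, and BMP signals raise Tbx2 in the atrioventricular canal.

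The libraries were of similar size, with 17767221 reads for Tcf21-MO and 17636925 for Control-MO. All 7 cardiomyocyte markers found in the table were abundant, with 23357 to 404343 reads in the Tcf21-MO library and 36502 to 657555 in the Control-MO library, so the tissue label held. The tcf21 row itself was 3.01-fold higher in the Tcf21-MO library. The labels do not say what the morpholino blocks, so that level does not check the knockdown. A transcript was called when it differed at least 2-fold with an interval that excluded a ratio of 1. Among the 8132 transcripts that summed to at least 20 reads, 2.67% were called higher and 2.4% lower in the Tcf21-MO library.

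One copy of tbx2 stood apart from all the other T-box transcripts. The S copy was 4.63-fold higher in hearts of the Tcf21-MO library (interval 4.13 to 5.21), while the L copy of the same gene had a ratio of 1.01 (0.890 to 1.15). Of the 6 rows, 1 was called higher, 0 were called lower and 5 passed neither rule, beside 2.67% of all transcripts called higher and 2.4% lower. The transcripts of tbx20, the most abundant of the 4 genes, and of both tbx3 copies had intervals that included a ratio of 1, and tbx5 was 1.20-fold lower. At a threshold of 1.5-fold, which 7.82% of all transcripts passed as higher and 6.67% as lower, tbx2.S was again the 1 row called. Of the 6 rows, 2, tbx2.S and tbx5.L, had an interval that excluded 1 at any size, beside 58.2% of all transcripts. The count was 3, with tbx20.L lower, when libraries were scaled to the total count or without the 50 most abundant transcripts.

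The tbx2.S row, a transcript of 3491 bp, had 1606 reads in the Tcf21-MO library (Poisson interval 1528 to 1687) and 353 in the Control-MO library (317 to 392). Scaled to the effective library size, these were 91.6 CPM (reads scaled to a common library size) in the Tcf21-MO library and 19.8 CPM in the Control-MO library. The tbx2.L row, of 3472 bp, had 492 reads in the Tcf21-MO library (449 to 537) and 496 in the Control-MO library (453 to 542). The counts of the S copy lay far apart between the libraries, and those of the L copy differed by less than counting error. As a log2 ratio, tbx2.S stood at 2.21, which placed it at rank 25 from the top of the 8132 transcripts. At least 4-fold higher with an interval excluding 1 were 0.406% of all transcripts. Of 2981 transcripts with a summed read count within 2-fold of that of tbx2.S, 6 had a log2 ratio as far from 0 or farther, tbx2.S included.

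**Figure D1:**
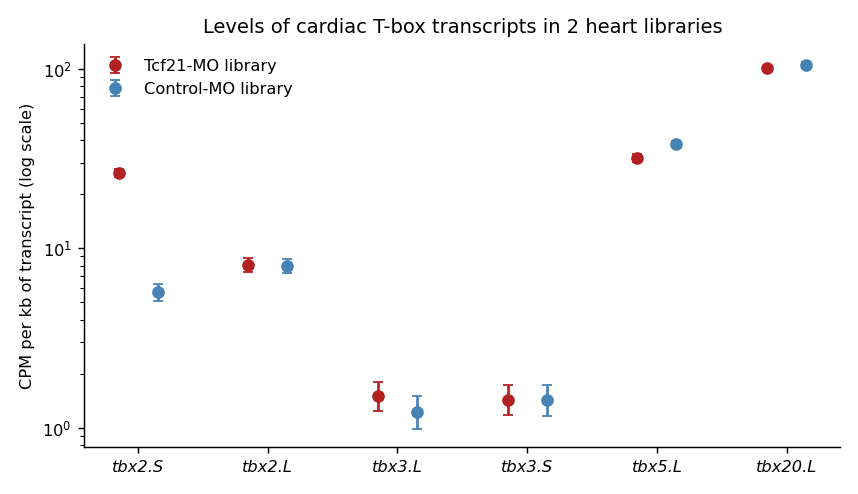
Level of the 6 rows of tbx2, tbx3, tbx5 and tbx20 in CPM per kb of transcript (log axis) in the Tcf21-MO and the Control-MO library, with 95% Poisson intervals of the count. The tbx2.S points stand apart at 26.2 CPM per kb in the Tcf21-MO library and 5.66 in the Control-MO library, while the points of each of the other 5 rows lie close together between libraries.

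The pair of tbx2 copies changed places between the libraries. In the Tcf21-MO library the S copy held 76.5% of all tbx2 reads (exact binomial interval 74.7 to 78.3), against 41.6% in the Control-MO library (38.2 to 45.0). There were thus 3.26 reads of the S copy for each read of the L copy in the Tcf21-MO library and 0.712 in the Control-MO library. The odds ratio between these was 4.58 (3.86 to 5.45), a value that needs no scaling between libraries. The copies are of nearly equal length, so shares per length were alike, at 76.5% in the Tcf21-MO library and 41.4% in the Control-MO library. Summed over both copies, tbx2 had 2098 reads in the Tcf21-MO library and 849 in the Control-MO library, and the summed gene was 2.52-fold higher (2.32 to 2.73). How reads that match both copies were counted is not given in the sources used here, so the values of each copy are uncertain to that extent.

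The 2 copies of tbx3, which in the mouse marks the cells of the conduction system, were both low and showed no such split. The tbx3.L row had 113 reads in the Tcf21-MO library and 94 in the Control-MO library, with a ratio of 1.22 (0.923 to 1.63). The tbx3.S row had 104 reads in the Tcf21-MO library and 105 in the Control-MO library, with a ratio of 1.01 (0.762 to 1.34). These counts overlapped between libraries for both copies. The upper ends of these intervals, 1.63 for tbx3.L and 1.34 for tbx3.S, bound what the counts allow. The S copy held 47.9% of the tbx3 reads in the Tcf21-MO library (41.1 to 54.8) and 52.8% in the Control-MO library (45.6 to 59.9), and the odds ratio of 0.824 had an interval of 0.550 to 1.23. Both copies together had 217 reads in the Tcf21-MO library and 199 in the Control-MO library, a ratio of 1.11 (0.912 to 1.35).

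Other homeolog pairs of the table give the setting for the tbx2 split. Over 567 pairs with both rows past the 20-read floor, the median absolute difference between the log2 ratios of the copies was 0.21 and the 95th percentile was 1.11. For tbx2 the S copy exceeded the L copy by 2.20, and 3 pairs, or 0.529%, had a difference of that size or more, tbx2 included. Among the 406 pairs with at least 400 reads in each row, a limit chosen after the values were seen, tbx2 was the 1 pair with a difference that large. Close behind it in this set were unc50 and carhsp1. The S copy of unc50 exceeded its L copy by 2.14, and for carhsp1 the difference of S from L was -2.05. Some row was called in 53 of the 567 pairs, and in 42 of them it was 1 copy alone. Of all transcripts, 2.67% were called higher and 2.4% lower. Whether calls of 1 copy alone were more frequent than these shares give was not tested.

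**Figure D2:**
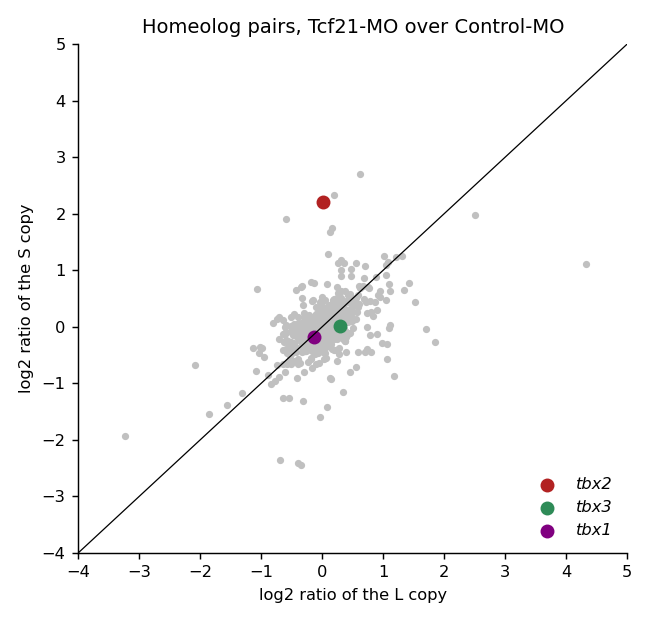
Log2 ratio of the S copy against that of the L copy, Tcf21-MO over Control-MO, for 567 homeolog pairs (grey points), with the line of equal ratios. The tbx2 pair lies at 0.01 for the L copy and 2.21 for the S copy, away from the line, while the tbx3 and tbx1 pairs lie within the main cloud.

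Among the genes that drive the chamber programme, tbx5 was slightly lower. The human gene is the one mutated in Holt-Oram syndrome, a disorder of heart and upper limb. The tbx5.L row had 1657 reads in the Tcf21-MO library (1578 to 1739) and 2024 in the Control-MO library (1937 to 2114), so the counting intervals did not overlap. It was 1.20-fold lower (1.12 to 1.28), a log2 ratio of -0.26. Of all transcripts, 22.3% had a lower log2 ratio than tbx5, and 28.4% were lower at any size with an interval that excluded 1. A difference of this size was thus common in the table.

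The tbx20.L row, of 1741 bp, had 3071 reads in the Tcf21-MO library (2963 to 3182) and 3266 in the Control-MO library (3155 to 3380). The ratio was 0.958 (0.911 to 1.01), so its interval reached 1 and the counting intervals overlapped. This is the most narrowly bounded ratio of the 6 rows. Tbx20 is required for chamber growth in mouse and frog embryos.

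The cardiomyocyte markers, background for tbx5 and tbx20, were all on the lower side. All 7 had a log2 ratio below 0, with a median of -0.38 and a range of -0.68 to -0.22. With 2.67% of all transcripts called higher and 2.4% lower, 0 of these 7 markers were called. Their summed level was 43576 CPM in the Tcf21-MO library and 62889 CPM in the Control-MO library, a ratio of 0.693. The log2 ratio of tbx5, -0.26, lay within the range of these markers, and that of tbx20, -0.06, lay above it. In whole hearts fewer cells of a type and less RNA per cell cannot be told apart. The part of the cell makeup in the tbx5 value was not tested.

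**Figure D3:**
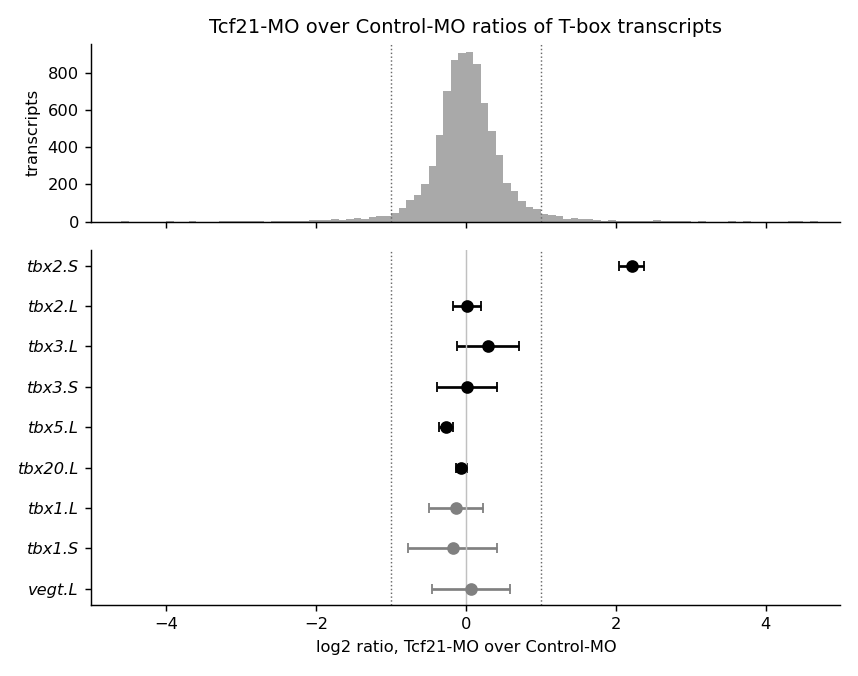
Top, histogram of log2 ratios, Tcf21-MO over Control-MO, of the 8132 transcripts with at least 20 reads. Bottom, the T-box rows past that floor with 95% counting intervals (black, the rows of tbx2, tbx3, tbx5 and tbx20, and grey, other family rows), with dotted lines at 2-fold. Of these rows, tbx2.S alone, at 2.21, lies beyond a dotted line.

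Levels per length put the genes in order. In the Tcf21-MO library tbx20.L stood at 101 CPM per kb, tbx5.L at 31.8, tbx2.S at 26.2, tbx2.L at 8.08, tbx3.L at 1.49 and tbx3.S at 1.43. In the Control-MO library tbx20.L stood at 105 CPM per kb, tbx5.L at 38.1, tbx2.L at 8.0, tbx2.S at 5.66, tbx3.S at 1.42 and tbx3.L at 1.22. The tbx2.S level therefore lay above that of tbx2.L in the Tcf21-MO library and below it in the Control-MO library, with counting intervals that did not overlap in either. The tbx3 copies were neighbours whose intervals overlapped in both libraries. Against a median of 11.5 CPM per kb over the table in the Tcf21-MO library and 11.6 in the Control-MO library, tbx20 and tbx5 were above in both and tbx3 was below in both. Only 9.35% of rows had a higher level than tbx20 in the Tcf21-MO library, and 8.71% in the Control-MO library. For tbx2.S the share of rows with a higher level was 29.1% in the Tcf21-MO library and 67.1% in the Control-MO library.

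The balance of tbx20 and tbx5 against tbx2 differed accordingly. The sums hold 2 rows each for tbx2 and tbx3 but 1 row each for tbx5 and tbx20, and tbx5.S was not analysed. Shares and ratios between the genes are therefore of these rows and not of all copies. With copies summed, tbx20 made up 59.3% of the CPM per kb of the 4 genes in the Tcf21-MO library and 65.9% in the Control-MO library. The share of tbx5 was 18.7% in the Tcf21-MO library and 23.9% in the Control-MO library. That of tbx2 was 20.2% in the Tcf21-MO library and 8.57% in the Control-MO library, and that of tbx3 was 1.73% in the Tcf21-MO library and 1.66% in the Control-MO library. The summed level of the 4 genes was 169.6 CPM per kb in the Tcf21-MO library and 159.4 in the Control-MO library. For each unit of tbx2 there was 0.926 of tbx5 in the Tcf21-MO library and 2.79 in the Control-MO library, and the odds ratio of their reads was 0.331 (0.298 to 0.368). For each unit of tbx2 there was 2.93 of tbx20 in the Tcf21-MO library and 7.69 in the Control-MO library, with an odds ratio of 0.381 (0.346 to 0.418). The ratio of tbx20 to tbx5 was 3.16 in the Tcf21-MO library and 2.76 in the Control-MO library, with an odds ratio of 1.15 (1.06 to 1.25).

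**Figure D4:**
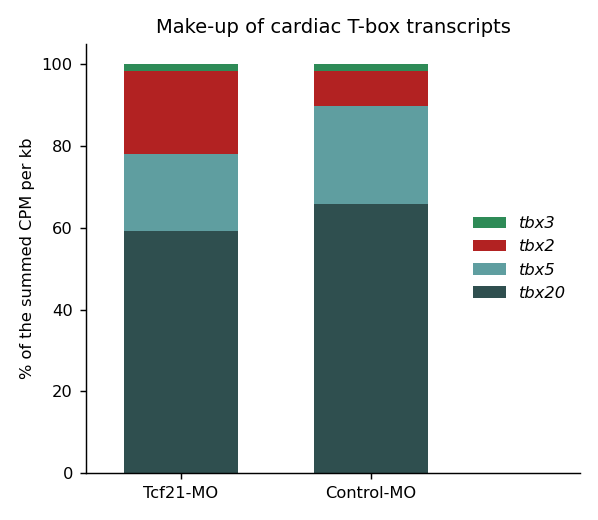
Share of tbx20, tbx5, tbx2 and tbx3, copies summed, in their summed CPM per kb, for the Tcf21-MO and the Control-MO library. The segments of tbx2 and tbx3 each sum 2 rows, and those of tbx5 and tbx20 hold 1 row each. The tbx2 segment takes 20.2% in the Tcf21-MO library and 8.57% in the Control-MO library, and tbx20 is the largest segment in both.

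The table held 11 further rows of the T-box family, of which 3 passed the 20-read floor. Of those, 0 were called, beside 2.67% of all transcripts called higher and 2.4% lower. The tbx1 gene, a T-box factor of the second heart field and pharynx, had 124 reads for its L copy in the Tcf21-MO library and 139 in the Control-MO library, with a ratio of 0.909 (0.707 to 1.17). Its S copy had 46 reads in the Tcf21-MO library and 53 in the Control-MO library, with a ratio of 0.885 (0.582 to 1.34). The S copy held 27.1% of the tbx1 reads in the Tcf21-MO library and 27.6% in the Control-MO library, so this pair kept its balance within counting error. The L copy of vegt, an early endoderm and mesoderm gene, had 66 reads in the Tcf21-MO library and 64 in the Control-MO library. Its S copy, below the floor, had 4 reads in the Tcf21-MO library and 13 in the Control-MO library. The odds ratio of S over L for vegt was 0.301, with an interval that included 1 (0.0678 to 1.04). The 8 rows below the floor had at most 17 reads over both libraries. They were vegt.S, both rows of t, the Brachyury gene, t2, eomes, tbx6, tbx6r and a row listed as tbx21 that the name table calls eomes.S. Brachyury, t2 and tbx6 mark early mesoderm or paraxial mesoderm. Rows at 0 allow up to 0.171 CPM in the Tcf21-MO library and 0.168 CPM in the Control-MO library. The tbx18 gene, a T-box marker of the epicardium, was not analysed here.

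Genes reported elsewhere as targets of cardiac T-box factors, mostly in the mouse, did not share one direction. Of 17 with at least 20 reads, 1 was called higher and 0 lower, beside 2.67% of all transcripts called higher and 2.4% lower. The list had 7 log2 ratios above 0 and 10 below. Its median was -0.23 (order-statistic interval -0.55 to 0.16), beside a median of 0.00 over all transcripts. The one called was hey1, a Notch-induced repressor that borders the atrioventricular canal, with 1277 reads in the Tcf21-MO library and 635 in the Control-MO library. It was 2.05-fold higher (1.86 to 2.26), and it lost the call when libraries were scaled to the total count or without the 50 most abundant transcripts. The natriuretic peptide gene nppb had a ratio of 1.58 (1.54 to 1.63), and nppa, a chamber gene that Tbx5 activates and Tbx2 represses in the mouse, had a ratio of 1.14 (1.11 to 1.17). The lowest of the list were bmp2, 1.75-fold lower (1.58 to 1.93), and vcan, a matrix proteoglycan gene of the cardiac jelly, 1.60-fold lower (1.49 to 1.72). For bmp2, an inducer of Tbx2 in the mouse atrioventricular canal, the named row is the S copy, with 615 reads in the Tcf21-MO library and 1095 in the Control-MO library. The L copy of bmp2 had 93 reads in the Tcf21-MO library and 117 in the Control-MO library. Neither bmp2 nor vcan passed the 2-fold rule.

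Partner proteins of the T-box factors were mixed as well. Of 24 past the floor, 0 were called higher and 1 lower, beside 2.67% of all transcripts called higher and 2.4% lower. There were 11 log2 ratios above 0 and 13 below, with a median of -0.02 (-0.33 to 0.11). The one called was casz1, a zinc finger gene of frog heart development whose mouse protein binds Tbx20, with 292 reads in the Tcf21-MO library and 726 in the Control-MO library, or 2.44-fold lower (2.13 to 2.81). The homeobox gene nkx2-5, whose protein binds Tbx5 and Tbx20, was 1.60-fold lower in its S copy (1.51 to 1.69) and 1.67-fold lower in its L copy (1.46 to 1.91). At 1.5-fold, 5 of the 24 were lower and 0 higher, beside 6.67% of all transcripts lower and 7.82% higher. Besides casz1 and nkx2-5 these were hand1, 1.59-fold lower (1.48 to 1.71), mef2a, 1.59-fold lower (1.44 to 1.76), and mef2c, 1.57-fold lower (1.38 to 1.79). The chromatin remodelling gene smarcd3, whose product assists Tbx5 and Gata4 in the mouse, had a ratio of 1.36 (1.21 to 1.52). The zinc finger gene sall4, whose mouse protein interacts with Tbx5, had a ratio of 1.26 from 31 reads in the Tcf21-MO library and 25 in the Control-MO library, with an interval that included 1 (0.722 to 2.23). The corepressor gene tle2 had a ratio of 1.21 (1.11 to 1.31), while chd4, whose NuRD complex binds Tbx5 in the mouse heart, had a ratio of 1.00 (0.963 to 1.04). Except for casz1, these partners stayed within 2-fold.

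BMP signalling genes, a list that holds antagonists and targets of the pathway as well as ligands and receptors, centred near 0. Of 19, 0 were called in either direction, beside 2.67% of all transcripts called higher and 2.4% lower. In this list 13 log2 ratios were above 0, and the median was 0.06 (-0.14 to 0.19). The ligand genes bmp7 and bmp2 were the lowest, at 1.78-fold (1.63 to 1.95) and 1.75-fold lower, and the highest were the BMP antagonist gene chrd, with a ratio of 1.55 (1.18 to 2.05), and the receptor gene bmpr1a, with a ratio of 1.25 (1.01 to 1.54). The ligand gene bmp4 had a ratio of 1.12 (1.01 to 1.24) for its S copy and 0.815 (0.729 to 0.911) for its L copy.

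Of 13 retinoid signalling genes, which act on heart fields along the body axis and on tbx5, 0 were called higher and 1 lower. The shares over all transcripts were 2.67% higher and 2.4% lower. The median of the list was 0.24 (-0.06 to 0.56). The lower one was aldh1a1, a retinal dehydrogenase gene, with 220 reads in the Tcf21-MO library and 699 in the Control-MO library, 3.11-fold lower (2.68 to 3.65). Just under the threshold, aldh1a2, the main enzyme gene of retinoic acid synthesis in the embryo and an epicardial marker, was 1.99-fold higher (1.87 to 2.11), and the receptor gene rxrg, with 61 reads in the Tcf21-MO library and 31 in the Control-MO library, was 1.99-fold higher (1.28 to 3.20). The retinoic acid hydroxylase gene cyp26a1 was 1.99-fold lower (1.15 to 3.63), from 20 reads in the Tcf21-MO library and 41 in the Control-MO library.

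**Figure D5:**
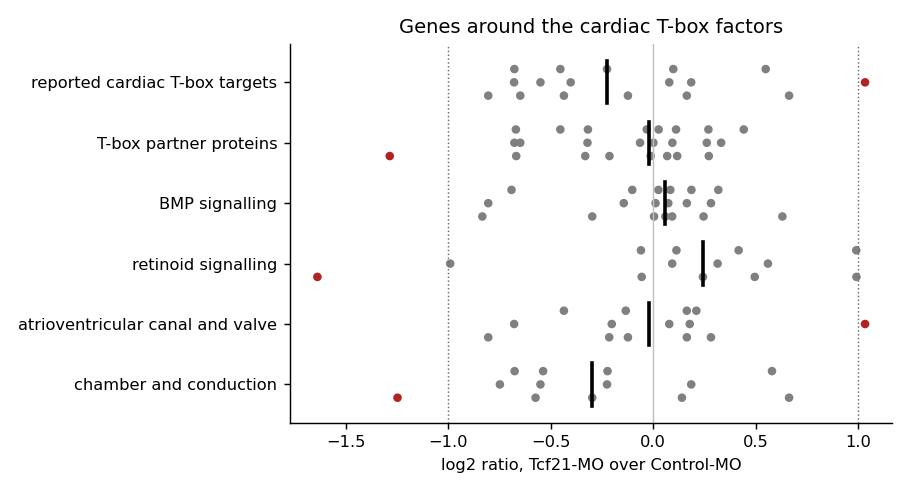
Log2 ratio, Tcf21-MO over Control-MO, of each gene with at least 20 reads in 6 lists, with 1 row per gene, a black bar at the median and dotted lines at 2-fold (red points lie beyond). Medians lie between -0.30 and 0.24, and few points pass a dotted line in any list.

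Genes of the atrioventricular canal and valve, and genes of the chambers and conduction system, were read as 2 further lists. In the mouse, Tbx2 and Tbx3 mark the canal and the conduction system. The chamber and conduction list also holds genes of the working chambers, whose programme they repress, so it is no readout of their territory. Called counts of both lists stand beside 2.67% of all transcripts called higher and 2.4% lower. Both lists share genes with the list of reported targets, so these are not separate observations of those genes. Of 14 atrioventricular canal and valve genes, hey1, the same row as among the targets, was the 1 called higher and 0 were lower. The median of this list was -0.02 (-0.44 to 0.21). Another of its members, msx1, a homeobox gene that cooperates with Tbx2 in the mouse, had a ratio of 1.22 (1.05 to 1.41) for its L copy. Its S copy had 244 reads in the Tcf21-MO library and 263 in the Control-MO library, a log2 ratio of -0.08. Of 13 chamber and conduction genes, 0 were called higher and 1 lower, with 9 log2 ratios below 0 and a median of -0.30 (-0.68 to 0.19). The lower one was the homeobox gene irx3, with 46 reads in the Tcf21-MO library and 112 in the Control-MO library, 2.38-fold lower (1.68 to 3.45). The next lowest, irx5, had 22 reads in the Tcf21-MO library and 38 in the Control-MO library and an interval that included 1. The connexin gene gjc1 had a ratio of 1.49 (1.40 to 1.59).

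Markers of cells outside the myocardium were compared for their own movement beside the tbx2.S value. Of 9 epicardial markers, 5 were called higher and 0 lower, beside 2.67% of all transcripts called higher and 2.4% lower. The summed epicardial level was 2596 CPM in the Tcf21-MO library and 1268 in the Control-MO library, a ratio of 2.05. None of the 11 epicardial rows was at 0. This list holds tcf21 itself, and of the other 8 markers 4 were called higher, with sums of 2383 CPM in the Tcf21-MO library and 1197 in the Control-MO library. The krt8 row made up 1536 CPM of the sum in the Tcf21-MO library and 803 CPM in the Control-MO library. Of 6 leukocyte markers, 2 were higher and 0 lower, and the sums were 264 CPM in the Tcf21-MO library and 198 in the Control-MO library. Of 5 cartilage markers past the floor, 1 was higher, and the sums were 708 CPM in the Tcf21-MO library and 559 in the Control-MO library. The largest cartilage row was col2a1.L, with 7528 reads in the Tcf21-MO library and 5420 in the Control-MO library. Its S copy had 3172 in the Tcf21-MO library and 3279 in the Control-MO library, a log2 ratio of -0.02. The 6 endothelial and endocardial markers had 0 calls and a summed ratio of 0.973. Their part in the tbx2.S value was not tested.

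Markers of other tissues, some of which express T-box genes in vertebrate embryos, were summed in the same way, and their part in the T-box values was not tested either. The counts of called markers stand beside 2.67% of all transcripts called higher and 2.4% lower. Neural markers, of which 5 of 9 were lower, summed to 43.2 CPM in the Tcf21-MO library and 78.1 in the Control-MO library. Lung, foregut and pancreas markers, 3 of 6 lower, summed to 8.67 CPM in the Tcf21-MO library and 20.7 in the Control-MO library. Of 17 eye marker rows, 13 had under 20 reads in both libraries, and 7 stood at 0 in the Tcf21-MO library and 3 in the Control-MO library, among them the pax6 rows in both. Not all eye markers were near 0, since the S copy of rax had 515 reads in the Tcf21-MO library and 715 in the Control-MO library. Its log2 ratio was -0.45. The eye list summed to 941 CPM in the Tcf21-MO library and 1161 in the Control-MO library. Its rbpms2 row, an RNA-binding protein gene also known from the heart, had 15841 reads in the Tcf21-MO library and 19864 in the Control-MO library. That row alone made up most of the eye sum in each library. Of 6 markers of epidermis and cement gland, 0 were higher and 3 lower. Erythroid markers, 8 of 10 of them lower and 0 higher, summed to 5618 CPM in the Tcf21-MO library and 22458 in the Control-MO library. Liver markers, 1 of 6 higher, summed to 57.9 CPM in the Tcf21-MO library and 52.3 in the Control-MO library. Of 4 skeletal muscle markers, 1 was called lower and 3 had a log2 ratio below 0. Their sum of 4294 CPM in the Tcf21-MO library and 3928 in the Control-MO library was mostly the ckm row, and without it the sums were 432 CPM in the Tcf21-MO library and 761 in the Control-MO library.

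Of the genes next to the tbx2 copies on the chromosome, by the order in the name table, none that was measured passed the 2-fold rule. Among the 5 protein-coding genes on each side of tbx2.S, the table held 3, and this look was chosen after the values were seen. The ratio was 0.839 for rps6kb1, 0.921 for ints2 and 1.02 for appbp2, and 0 of them were called. Of all transcripts, 2.67% were called higher and 2.4% lower, so 0 calls among 3 says little. Beside tbx2.L the table held brip1 alone, with a ratio of 1.14. In the same order tbx3.L and tbx5.L are direct neighbours, and their ratios were 1.22 for tbx3.L and 0.834 for tbx5.L. Beside tbx3.S, 5 genes away, sds, a serine dehydratase gene, was called higher, with 132 reads in the Tcf21-MO library and 59 in the Control-MO library, or 2.27-fold (1.66 to 3.15). The other measured neighbour of tbx3.S, lhx5, had a ratio of 0.764 and was not called. The 6 measured neighbours of tbx20.L had ratios from 0.755 to 1.08, and none was called.

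Transcripts with the most similar pair of levels were found by the distance of log2 CPM over the 2 libraries. For tbx2.S the nearest were parp3, with 1433 reads in the Tcf21-MO library and 417 in the Control-MO library, and the activin receptor gene acvr2a, with 1536 in the Tcf21-MO library and 503 in the Control-MO library. They lay 0.29 and 0.51 log2 units away, whereas the nearest to the other 5 rows lay within 0.04. These were shroom1 and c19orf2 (uri1 in the name table) for tbx2.L, skp2 and gk for tbx3.S, and tmem194a (nemp1 in the name table) and atxn7 for tbx3.L. For tbx5.L they were smyd2 and c20orf11 (gid8 in the name table), and for tbx20.L tcf3 and itga2b. With 2 libraries, such likeness is only a like level in each.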

How the data were processed

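Polyadenylated RNA of pooled hearts was sequenced in 1 Tcf21-MO and 1 Control-MO library, grouped by the label that names the injected morpholino. The authors deposited raw read counts per RefSeq transcript, in whole reads, and transcript lengths in bp, another kind of value, per the file headers. Tools named, without a role, in the submitters' processing notes are SAMtools 0.1.18.0, Bowtie2 2.0.0.6 and CASAVA 1.7. For the build, the counting rule, strand and reads that fit several transcripts, the procedure is not given in the sources used here. The deposited fold changes were left out, since all ratios were recomputed from counts.

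Scaling used TMM factors from edgeR 4.0.16 (R 4.3.3), 0.987 for Tcf21-MO and 1.01 for Control-MO. Log2 ratios had 0.5 counts added. Intervals of ratios are exact binomial (Clopper-Pearson), given the summed count, those of odds ratios are exact conditional, and those of counts are exact Poisson (SciPy 1.17.1). Amplified reads are not independent molecules, so intervals and the limit of 3 counts that a count of 0 allows cover counting error only. For a listed gene with several rows, the row with the highest mean level was used.

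The 4 genes and all lists were chosen with earlier results of these data known. Named genes were tcf21, every T-box row, the 2 highest and 2 lowest of each list with at least 50 reads, those called, and the 2 most similar transcripts per row. Other scalings (total count, DESeq2 size factors, without the most abundant transcripts), floors, thresholds, an added count of 2, removal of a length trend and summed homeologs were tried. Of the accessions, 8315 matched the name table. Second copies of named genes and chromosomal neighbours were named after their values were seen. So were nppa, chd4, tle2, bmp4, hand1, mef2a, mef2c, unc50, carhsp1, rbpms2, sds, lhx5, rax, col2a1 and pax6.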

Additional observations from a re-analysis of the deposited data

How the results depend on the processing

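The log2 ratio of tbx2.S ran from 2.13 to 2.23 over the other scalings, the added count, the floors and removal of the length trend, and it kept its call in each. With copies summed, tbx2 stood at 1.33. The ratio of tbx2.L ran from -0.07 to 0.04, that of tbx3.L from 0.21 to 0.32, that of tbx3.S from -0.07 to 0.04, that of tbx5.L from -0.35 to -0.25 and that of tbx20.L from -0.15 to -0.06. For tbx20.L the lowest value, -0.15 (-0.22 to -0.08), came from scaling without the 50 most abundant transcripts and left the interval of the main value. Scaling to the total count gave -0.10 (-0.17 to -0.03), which excluded 0 as well. Scaling without the 50 most abundant transcripts shifted the median of all transcripts to -0.08. At 1.5-fold no further T-box row was called, while 636 of all transcripts were higher and 542 lower. With a floor of 100 reads, 106 were lower, because fewer transcripts were tested.

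Called members of lists changed as follows. Scaling to the total count, or without the 50 most abundant transcripts, left 0 higher among the targets and 0 among the atrioventricular canal genes and gave 2 lower among the retinoid genes. Removal of the length trend gave 2 higher retinoid genes. At 1.5-fold 7.82% of all transcripts were higher and 6.67% lower. There were 2 higher and 4 lower of 17 targets, 5 lower of 24 partners, and 1 higher and 2 lower of 19 BMP genes. Of 13 retinoid genes 2 were higher and 2 lower. Of 14 atrioventricular canal genes 1 was higher and 2 lower, and of 13 chamber genes 1 was higher and 2 lower. All list medians stayed within their intervals. The cause of these shifts was not tested. No paired analysis was possible because each group was 1 library. Depth limits the tbx3 copies most.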
